A study of Mus musculus with 12 samples.

Results

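The daily time course of mice on a standard diet was followed in 6 RNA-seq libraries of eyelid tissue, chosen by their labels from the 12 libraries of the study. They were collected at 9h (libraries 2 and 3), 15h (libraries 2 and 3) and 21h (libraries 1 and 2), which are morning, afternoon and evening hours in the text of the study. The animals were male C57BL/6 mice, 6 to 8 weeks old on arrival, housed with 12 h of light and 12 h of dark. Their diet had 10 kcal% fat and was given for 3 months by the sample labels and for 4 months by the study's text. The other 6 libraries, 2 at each of the same times, came from mice on a diet with 60 kcal% fat and enter here for comparison only. No genetic change or drug is named for any group, and both diets shared the strain, sex and housing. The number of mice behind each library is not given in the sources used here, and p-values therefore speak only of the spread between libraries, which may be technical. The clock hours of lights on and off are likewise not given.

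The mammalian circadian clock is a feedback loop of transcription. CLOCK or NPAS2 pairs with BMAL1, the product of Arntl, and activates genes with E-boxes, among them Per, Cry, Nr1d1, Nr1d2, Ciart, Dbp and Tef. PER and CRY proteins then repress that activation. A second loop runs through elements bound by ROR activators and REV-ERB repressors (Nr1d1 and Nr1d2), which act on Arntl and Npas2, and another through D-boxes bound by DBP, TEF and HLF and by their competitor NFIL3. In most peripheral tissues of the mouse the activators Arntl and Npas2 and the Per genes peak at opposite times of day. The meibomian gland, a sebaceous gland of the eyelid margin, makes the lipid layer of the tear film.

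Arntl, Per3, Tef and Ciart were called over time in the fit of the 6 standard-diet libraries described below, and not with all 12 libraries. The promoters of these 4 clock genes are shown because they hold 1 of the 3 elements named above. They are RefSeq windows on GRCm38.p6, from 250 bases before to 50 after a transcript's start, 5′ to 3′ along the gene, with the element in capitals. The Arntl window (chr7:113207261-113207560, plus strand) holds a match to the ROR element, a GGTCA half-site with an A/T-rich flank, the Per3 window (chr4:151044616-151044915, minus strand) holds D-boxes TTATGNAA, and the Tef window (chr15:81802423-81802722, plus strand) and the Ciart window (chr3:95882179-95882478, minus strand) hold E-boxes CACGTG.
Arntl: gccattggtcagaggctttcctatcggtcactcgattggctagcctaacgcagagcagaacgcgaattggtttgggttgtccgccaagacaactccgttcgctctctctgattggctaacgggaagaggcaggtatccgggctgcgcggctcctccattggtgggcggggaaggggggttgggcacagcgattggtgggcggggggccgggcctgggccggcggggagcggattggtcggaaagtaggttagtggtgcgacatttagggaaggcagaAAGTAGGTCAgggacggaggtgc
Per3: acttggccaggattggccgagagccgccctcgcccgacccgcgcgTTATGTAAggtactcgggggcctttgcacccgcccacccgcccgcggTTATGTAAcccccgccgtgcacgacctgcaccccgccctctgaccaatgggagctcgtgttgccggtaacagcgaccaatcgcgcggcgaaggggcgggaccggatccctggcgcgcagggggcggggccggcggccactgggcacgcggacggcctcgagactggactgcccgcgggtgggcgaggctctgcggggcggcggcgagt
Tef: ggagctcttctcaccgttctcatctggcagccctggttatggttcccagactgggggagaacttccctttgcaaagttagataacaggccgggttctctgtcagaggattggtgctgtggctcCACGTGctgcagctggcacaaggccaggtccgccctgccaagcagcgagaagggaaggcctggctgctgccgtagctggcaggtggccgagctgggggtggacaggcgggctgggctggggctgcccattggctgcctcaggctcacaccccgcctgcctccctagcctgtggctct
Ciart: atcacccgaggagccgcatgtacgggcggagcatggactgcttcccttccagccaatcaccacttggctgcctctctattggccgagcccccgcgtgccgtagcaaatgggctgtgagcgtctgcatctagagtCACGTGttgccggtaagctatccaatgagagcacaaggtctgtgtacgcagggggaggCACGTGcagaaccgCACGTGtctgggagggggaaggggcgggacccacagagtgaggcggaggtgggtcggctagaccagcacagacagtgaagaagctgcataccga
Among the 13264 windows of genes tested, searched on both strands, 9.66% held CACGTG, 2.32% held TTATGNAA and 1.94% held the ROR element. Of the 25 windows of clock genes, which cover 17 of the 22 clock genes measured, 6 held the E-box (Bhlhe41, Ciart, Cry1, Per1 and Tef), 2 the D-box (Per1 and Per3) and 1 the ROR element (Arntl). The first base of the ROR match lay 28 bases after the start of Arntl. A second Arntl window (chr7:113207215-113207514, plus strand) and the Npas2 window held none of the 3 elements. A match describes these letters only, and none says that a factor was bound.

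The table held FPKM, read counts scaled to transcript length and library depth, for 21936 genes. Steps between the values gave a depth of 14887709 to 17889158 reads in the standard-diet libraries, at which 1 read on a transcript of 2 kb is worth 0.0279 to 0.0336 FPKM. Tests used the 13228 genes above 1 FPKM in at least 2 of the 12 libraries, on log2(FPKM + 1), and all differences below are on that scale unless FPKM is named. The label meibomian gland was checked against marker genes. Scd1, Awat2 and Elovl3, which meibocytes use to make long-chain lipids and wax esters, were abundant in every standard-diet library, at 2993 to 4591 FPKM for Scd1, 840 to 1320 FPKM for Awat2 and 363 to 433 FPKM for Elovl3. Not every meibocyte marker was abundant: Dgat2l6 had 0.522 to 2.03 FPKM in these libraries, and Mogat1 and Dnase2b were under 1 FPKM in every library. Keratinocyte Krt5 (1179 to 1429 FPKM) and skeletal muscle Acta1 (721 to 2067 FPKM) were abundant too, and the study's text says that whole eyelids were taken.

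Libraries differed in ways other than time. The first principal component of the 6 libraries, with 48.0% of the variance, put both 9h libraries (-23.3 and -26.5) apart from 15h (5.34 and 14.7) and 21h (18.6 and 11.1). The second, with 27.3%, put 9h library 2 (15.7) and 21h library 1 (22.4) apart from the other 4 (-11.5 to -8.59), and the mean of 7 neutrophil markers was 4.66 and 4.74 in those 2 libraries against 2.83 to 3.33 in the other 4. Whether neutrophils had a part in any result below was not tested.

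The 2 high-fat libraries of 9h differed from each other. For the 751 genes called over time in the standard-diet libraries alone (described below), a position of 0 was set at the standard-diet 9h mean and of 1 at the mean of 15h and 21h. The median position was 0.89 in high-fat 9h library 6 and -0.05 in high-fat 9h library 7, and between 0.721 and 1.09 in the 4 later high-fat libraries. Library 7 was nearer to 9h for 706 of the 751 genes (94.0%) and library 6 for 113 (15.0%). The genes were called on the standard-diet libraries, which set both ends of the scale, so the scale describes the high-fat libraries only. At 9h, library 7 lay at the 9h end and library 6 near the later end. This was not so for every gene group. For the 10 clock genes among the 751 the median position was 0.45 in library 6 and 0.409 in library 7, and the 2 libraries lay on the 9h side together for 6 of them, among which were Tef, Npas2, Arntl, Per2 and Dbp. The root mean square SD of the pair over all genes was 0.272, between the 0.192 of high-fat 21h and the 0.296 of high-fat 15h, and it was 0.165 to 0.234 for the standard-diet pairs.

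Over time on the standard diet, limma on all 12 libraries called 3 genes by an F test at an adjusted p under 0.05, Per2, Inmt and Npas2, which is 0.0227% of the genes tested. At an unadjusted p under 0.05 there were 2421 genes (18.3%). Between pairs of times, 3 genes were called for 15h against 9h and 5 for 21h against 9h (0.0227% and 0.0378%). Between 21h and 15h no gene passed (0.0%): the smallest limma adjusted p was 0.619, the unadjusted p was under 0.05 for 342 genes, and a voom fit of the recovered reads gave 0 calls as well. With 3 pairs of libraries an exact permutation test of a single value cannot go below p = 0.0667, and with 2 libraries against 2 not below 0.333, so none was used.

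Per2, a repressor of the clock's positive limb (ENSMUSG00000055866, chromosome 1, 91415982 to 91459324, minus strand of GRCm38), had 1.31 and 1.63 FPKM at 9h, 5.60 and 7.02 FPKM at 15h and 15.2 and 13.4 FPKM at 21h. The 3 times did not overlap, and each later time was higher than the one before. The difference was 2.63 ± 0.18 (SE) for 21h minus 9h (limma adjusted p = 0.00126) and 1.56 ± 0.18 for 15h minus 9h (adjusted p = 0.0397). Between 21h and 15h it was 1.07 ± 0.18 and did not pass (adjusted p = 0.71). The call of Per2 by the limma F test (adjusted p = 0.0046) was kept in 10 of 12 fits that left out 1 library, and lost without 9h library 2 (adjusted p = 0.126) and without 21h library 1 (0.0674). In high-fat libraries Per2 kept the same order, with 3.95 and 2.97 FPKM at 9h, 7.79 and 5.76 FPKM at 15h and 13.3 and 10.9 FPKM at 21h.

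Npas2, the partner of BMAL1 that can stand in for CLOCK (ENSMUSG00000026077, chromosome 1, 39193731 to 39363236, plus strand of GRCm38), had 4.74 FPKM in both 9h libraries, 1.64 and 1.44 FPKM at 15h and 1.70 and 1.63 FPKM at 21h. Both 9h libraries were above the other 4, whose times overlapped. Npas2 was lower at 15h than at 9h by -1.18 ± 0.12 (limma adjusted p = 0.0397) and at 21h than at 9h by -1.11 ± 0.12 (adjusted p = 0.0202). Inmt, which methylates tryptamine and other amines (ENSMUSG00000003477, chromosome 6, 55170626 to 55175043, minus strand of GRCm38), had 6.04 and 9.64 FPKM at 9h, 24.3 and 25.1 FPKM at 15h and 29.5 and 28.3 FPKM at 21h. Its times did not overlap, and the difference was 1.57 ± 0.18 for 15h minus 9h (adjusted p = 0.0397) and 0.22 ± 0.18 for 21h minus 15h. The limma F test called both genes (adjusted p = 0.0284), but Inmt lost its call in 7 of the 12 fits without 1 library (adjusted p of 0.0773 to 0.186) and Npas2 in 8 (0.0773 to 0.506), among them each fit without 9h library 2, a 15h library or a 21h library of the standard diet. With the muscle score described below as a covariate, Per2 (adjusted p = 0.331), Inmt and Npas2 (both 0.64) were not called.

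**Figure D1:**
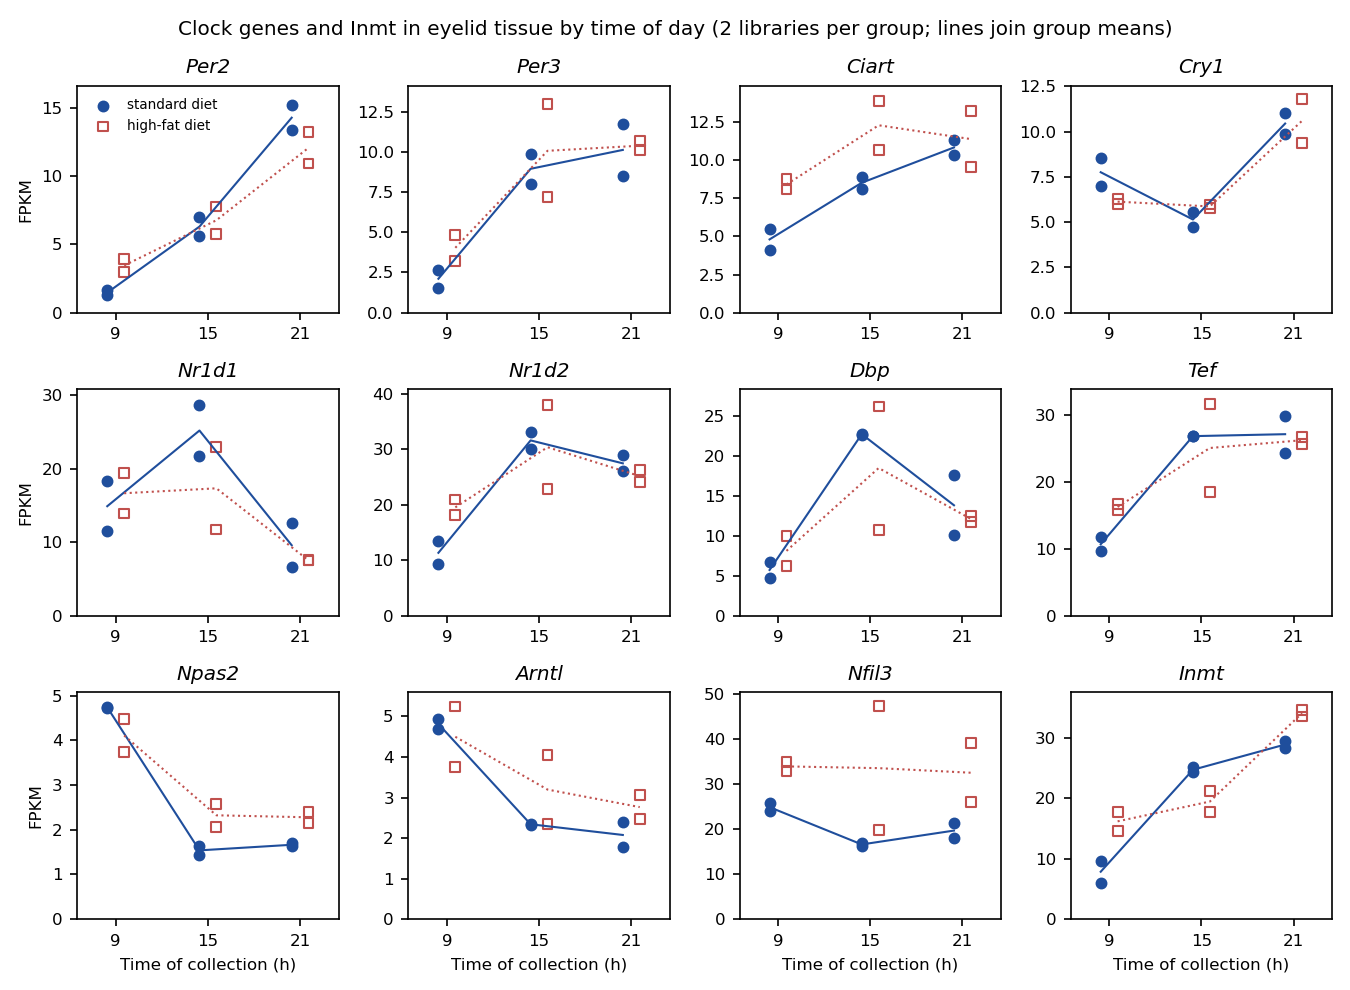
FPKM of 11 clock genes and Inmt at 9h, 15h and 21h, with 1 point per library, filled circles for the standard diet, open squares for the high-fat diet, and lines joining the means of 2 libraries. On the standard diet Per2 had 1.31 and 1.63 FPKM at 9h and 15.2 and 13.4 FPKM at 21h, while Npas2 had 4.74 FPKM in both 9h libraries and 1.44 to 1.70 FPKM later.

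The fit of the 6 standard-diet libraries alone, with 3 residual degrees of freedom in place of 6, called far more genes: 751 by the F test (5.68%). It called 818 genes higher and 270 lower at 15h than at 9h (6.18% and 2.04%), and 908 higher and 419 lower at 21h than at 9h (6.86% and 3.17%). It called 0 genes between 21h and 15h (0.0%). The fit of all 12 libraries gave 838 genes without high-fat 9h library 6, 839 without library 7 and 836 without both. Without a high-fat 15h library it gave 8 and without a high-fat 21h library 1. The 751 rested on single libraries as well: 0 genes were called without 9h library 2, without 9h library 3, without 15h library 2 or without 15h library 3, 106 without 21h library 1 and 165 without 21h library 2. A call named as that of the 6-library fit carries this limit, and is that of the F test unless 2 times are named.

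Of the 22 clock genes measured, the 6-library F test called 10 (45.5%), against 5.68% of all genes. In all, 6 of the 10 had their lowest mean at 9h and 2 their highest.

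Among the activators, Arntl followed Npas2, with 4.68 and 4.95 FPKM at 9h, 2.33 and 2.35 FPKM at 15h and 2.38 and 1.77 FPKM at 21h. Both 9h libraries were above the other 4, and 15h and 21h overlapped. Arntl was lower at 15h than at 9h by -0.80 ± 0.12 (6-library limma adjusted p = 0.0271) and at 21h than at 9h by -0.93 ± 0.12 (adjusted p = 0.0208). Clock, the constitutive partner of BMAL1, stayed between 8.30 and 11.5 FPKM and was not called, and neither was Rora, between 12.1 and 17.0 FPKM.

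Among the repressors, Per3 had 1.54 and 2.68 FPKM at 9h, 8.01 and 9.91 FPKM at 15h and 8.52 and 11.7 FPKM at 21h. The 9h libraries were the lowest and the later times overlapped (1.70 ± 0.23 for 15h minus 9h, 6-library limma adjusted p = 0.0211). Nr1d2, a REV-ERB repressor, had 9.30 and 13.4 FPKM at 9h, 30.1 and 33.1 FPKM at 15h and 26.0 and 28.9 FPKM at 21h. It was highest at 15h, with no overlap, and differed by 1.42 ± 0.17 between 15h and 9h (adjusted p = 0.0183). Ciart, a repressor of CLOCK and BMAL1, had 4.11 and 5.49 FPKM at 9h, 8.14 and 8.90 FPKM at 15h and 11.3 and 10.3 FPKM at 21h, an ordered rise without overlap (1.04 ± 0.13 for 21h minus 9h, adjusted p = 0.0206). Cry1 was lowest at 15h, with 8.52 and 6.996 FPKM at 9h, 4.72 and 5.57 FPKM at 15h and 11.0 and 9.89 FPKM at 21h. Its times did not overlap either (6-library F test, adjusted p = 0.0372).

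Nr1d1, the other REV-ERB gene, had 11.5 and 18.3 FPKM at 9h, 28.6 and 21.8 FPKM at 15h and 6.57 and 12.6 FPKM at 21h. Both 15h libraries were above all others, but the gene was not called (6-library adjusted p = 0.107). Nr1d1 and Thra overlap on opposite strands at their 3′ ends, and the strand setting of the counting is not given in the sources used here, so reads of the overlap cannot be assigned. Per1 varied within each time as much as between times, with 6.56 and 11.7 FPKM at 9h, 7.18 and 13.4 FPKM at 15h and 17.4 and 11.7 FPKM at 21h. Cry2 (3.74 to 5.67 FPKM), the E-box repressors Bhlhe40 (29.2 to 33.1 FPKM) and Bhlhe41 (12.3 to 17.4 FPKM) and the PER kinases Csnk1d (25.3 to 30.1 FPKM) and Csnk1e (10.1 to 13.7 FPKM) were not called.

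Of the D-box factors, Tef had 9.63 and 11.8 FPKM at 9h, 26.9 and 26.8 FPKM at 15h and 24.4 and 29.95 FPKM at 21h, with 9h below the rest and the later times overlapping (1.26 ± 0.13 for 15h minus 9h, 6-library adjusted p = 0.0183). Dbp had 4.70 and 6.80 FPKM at 9h, 22.8 and 22.7 FPKM at 15h and 10.1 and 17.6 FPKM at 21h. It was highest at 15h without overlap (1.83 ± 0.26 for 15h minus 9h, adjusted p = 0.0232). Hlf (5.04 to 10.8 FPKM) was not called, and Nfil3, the competitor at D-boxes, had 25.8 and 24.03 FPKM at 9h, 16.9 and 16.3 FPKM at 15h and 21.3 and 18.1 FPKM at 21h. Nfil3 was lowest at 15h, where Dbp was highest; the 6-library fit called it for 15h minus 9h (adjusted p = 0.0349) and not by the F test (adjusted p = 0.0591).

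**Figure D2:**
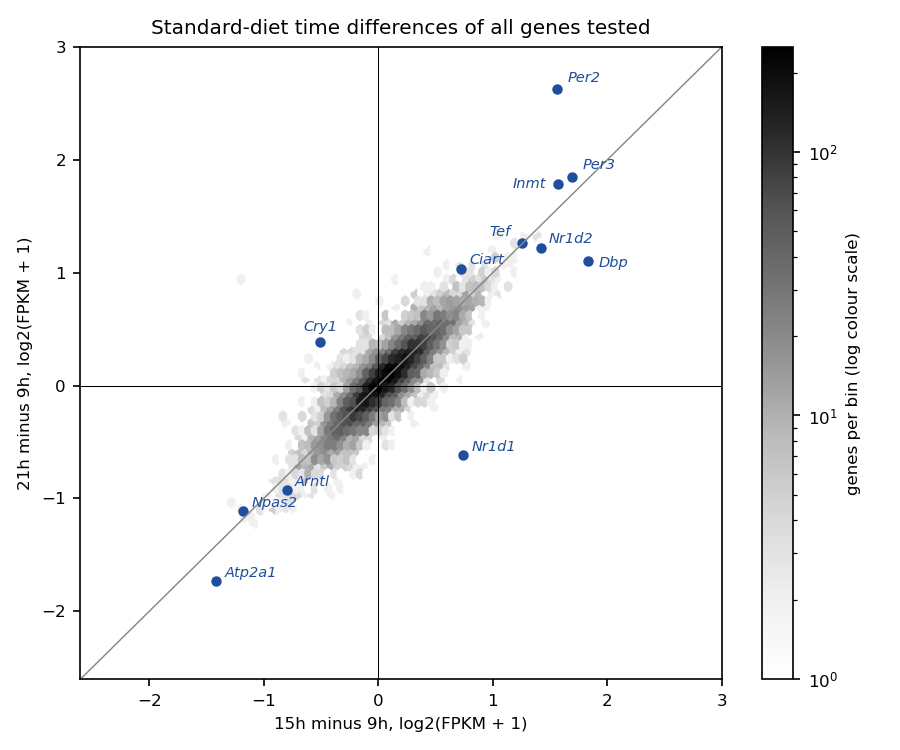
Standard-diet difference of 21h minus 9h (vertical) against 15h minus 9h (horizontal), both on log2(FPKM + 1), for the 13228 genes tested, in grey by number of genes per bin, with named genes in blue and the line of equal differences. The 2 axes share the 9h libraries. Per2 lies above the line (1.56 and 2.63), Dbp below it (1.83 and 1.11), and Cry1 is lower at 15h and higher at 21h than at 9h.

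Most called genes were lowest at 9h and differed little between 15h and 21h. Of the 751 genes, 536 had their lowest mean at 9h (4.05% of the genes tested) and 208 their highest (1.57%). These are 71.4% and 27.7% of the 751, against 52.9% and 31.4% of all genes. The difference between 15h and 9h was larger in size than that between 21h and 15h for 722 of them (96.1%), and for 71.2% of all genes. Where 15h lay between the other times, in 390 genes, a median of 84.6% of the difference between 9h and 21h was present by 15h. The 15h mean was the lowest for 60 of the 751 (0.454% of the genes tested), Npas2 among them. Of these 60 genes 4, Cry1 among them, were highest at 21h, an order that 7.36% of all genes had. The peak minus trough difference of the 751 genes had a median of 0.73 in the standard-diet means and 0.36 in the high-fat means between the same times, against 0.26 and 0.10 for all genes. Both times were picked in the standard-diet means, a choice that by itself favours a smaller high-fat value. The difference kept its sign in the high-fat means for 706 genes (94.0%), and for 71.5% of all genes.

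**Figure D3:**
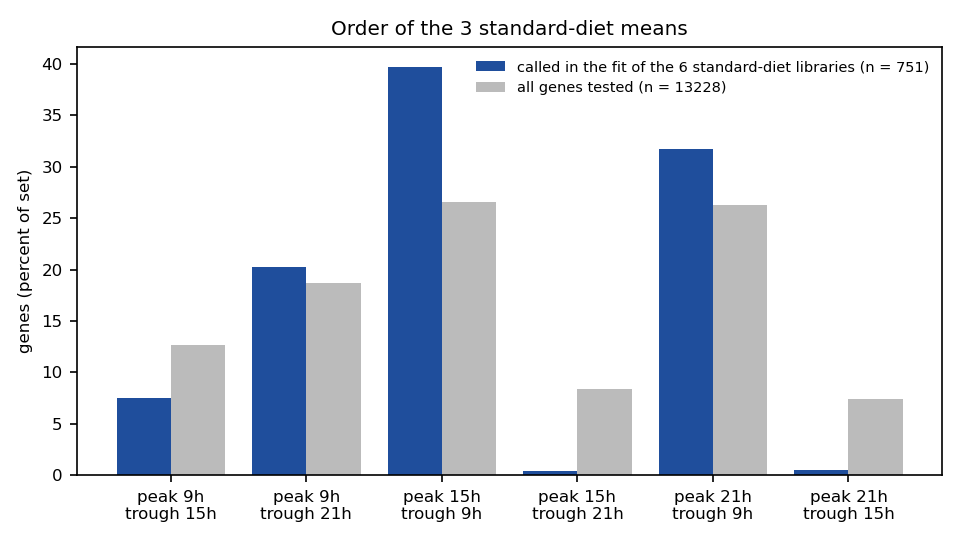
Percent of genes by the time of the highest and lowest standard-diet mean, for the 751 genes called in the fit of the 6 standard-diet libraries (blue) and all 13228 genes tested (grey). A trough at 9h was held by 536 of the called genes.

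Several families of RNA splicing genes were lowest at 9h. The 8 families were picked by symbol after the calls were seen, so their counts describe and do not test. Of the 93 measured members of the Srsf, Hnrnp, Luc7l, Clk, Ccnl, Prpf, Sf3 and Rbm families, 31 were called by the 6-library F test (33.3%, against 5.68% of all genes). Of the 31, 28 had the lowest mean at 9h, as 71.4% of the 751 called genes had. A positive difference of 15h minus 9h was held by 79.6% of the 93 and 61.2% of all genes. The families differed, with medians of that difference from 0.11 (Prpf) and 0.12 (Sf3) to 1.39 (Ccnl). The Srsf genes code for SR proteins, which bind exons and recruit the spliceosome, and 7 of 10 were called, all lowest at 9h. The Clk kinases phosphorylate SR proteins, and 3 of 4 were called, as were both cyclin L genes, Ccnl1 and Ccnl2, and all 3 Luc7l genes, whose products belong to the U1 snRNP.

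Srsf5 had 56.7 and 74.5 FPKM at 9h, 142 and 148 FPKM at 15h and 142 and 144 FPKM at 21h. Clk1 had 8.95 and 11.2 FPKM at 9h, 29.2 and 36 FPKM at 15h and 32.8 and 35.3 FPKM at 21h. Both 9h libraries were the lowest for each gene, and 15h and 21h overlapped. The difference between 15h and 9h was 1.15 ± 0.14 for Srsf5 and 1.60 ± 0.14 for Clk1 (6-library F test, adjusted p = 0.0262 for both). Hnrnph1, an hnRNP protein that binds G-rich RNA, had 34.7 and 35.2 FPKM at 9h, 73.3 and 76.9 FPKM at 15h and 71.8 and 75.7 FPKM at 21h. Of the called members 3 were highest at 9h: Sf3a2, a subunit of the U2 snRNP, had 14.9 and 17.0 FPKM at 9h, 7.86 and 6.19 FPKM at 15h and 7.30 and 8.42 FPKM at 21h, and Sf3b4 and Hnrnpab were the other two.

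None of these members was called by the F test on all 12 libraries (adjusted p of 0.175 for Srsf5 and 0.212 for Clk1), and the high-fat libraries of 9h stood at opposite ends. In high-fat libraries Srsf5 had 162 FPKM in 9h library 6 and 81.9 FPKM in 9h library 7, and Clk1 had 37.9 FPKM and 8.49 FPKM in the same order. For all 31 called members library 7 was nearer to the standard-diet 9h mean and library 6 nearer to the mean of 15h and 21h. Of the 10 called clock genes, library 6 lay on the 9h side for 6, as with Npas2 at 4.48 FPKM and Arntl at 5.24 FPKM, and on the later side for Nr1d2, Per3, Cry1 and Ciart. Over all genes, the difference of library 6 minus library 7 had a Pearson r of 0.619 with the standard-diet difference of the later hours minus 9h, as a description across genes, which are not independent. Base composition moved with these differences: the median of 15h minus 9h was 0.14 in the fifth of genes with the lowest GC content and 0.01 in the fifth with the highest. Its part in the result was not tested, and a GC correction of the fit on all 12 libraries left 4 genes called by the F test.

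**Figure D4:**
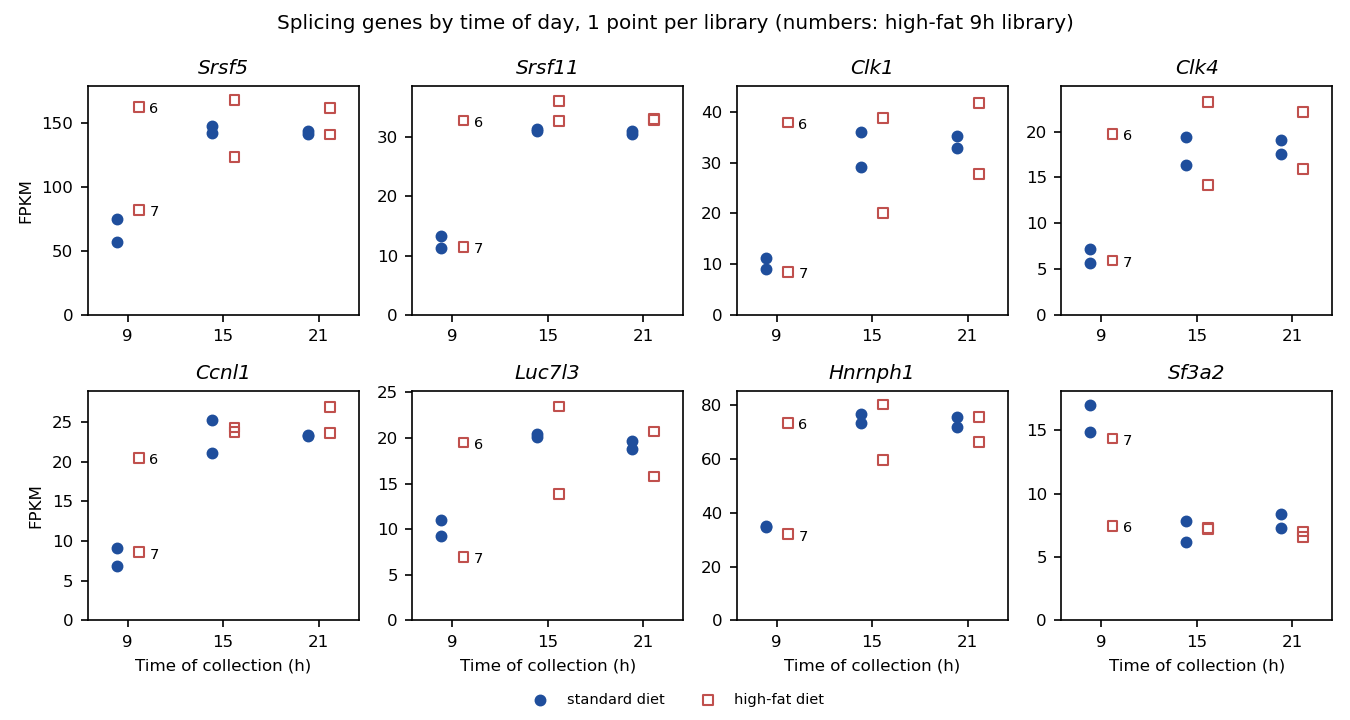
FPKM of 8 splicing genes, chosen after their values were seen, with 1 point per library at 9h, 15h and 21h, filled circles for the standard diet and open squares for the high-fat diet, whose 9h libraries are numbered. High-fat 9h library 7 lies with the standard-diet 9h libraries and library 6 with the later hours, as for Clk1 at 8.49 FPKM and 37.9 FPKM.

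Skeletal muscle genes were highest at 9h. The mean of 15 muscle markers was 7.64 and 7.47 at 9h, 7.13 and 6.73 at 15h and 7.06 and 6.41 at 21h, and the high-fat 9h libraries, at 7.47 and 7.80, were also above the 4 later high-fat libraries (6.42 to 6.85). Here the 4 libraries of 9h stood together. The 6-library F test called 3 of the 15 markers (20%, against 5.68% of all genes), Atp2a1, Actn3 and Ryr1, all highest at 9h. For 21h minus 9h that fit called 4 lower, Ckm with them, and 3.17% of all genes. The F test on all 12 libraries called none of the markers. Atp2a1, the calcium pump of fast muscle fibres, had 800 and 722 FPKM at 9h, 339 and 239 FPKM at 15h and 272 and 192 FPKM at 21h, a difference of -1.73 ± 0.23 for 21h minus 9h (adjusted p = 0.0208). The median marker differed by -0.82 between 21h and 9h, against 0.07 for all genes. In tissue of this kind fewer muscle fibres and less muscle RNA per fibre cannot be told apart. The muscle markers Myh7, Tnnc2 and Tnni1 were under 1 FPKM in every library.

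Most genes of fatty acid oxidation and of the respiratory chain were lower at 15h than at 9h. Pdk4, which inhibits the pyruvate dehydrogenase complex, is in neither of these lists. It had 126 and 117 FPKM at 9h, 32.6 and 38.9 FPKM at 15h and 77.3 and 47.7 FPKM at 21h. Pdk4 was lower at 15h than at 9h by -1.74 ± 0.22 (6-library limma adjusted p = 0.0207). Of 15 genes of fatty acid oxidation 14 had a negative difference of 15h minus 9h, as 38.8% of all genes had, with a median of -0.24. The 6-library F test called 1 of them, Acadvl (6.67%, against 5.68% of all genes). Of 20 respiratory chain genes 17 were negative, with a median of -0.14. The same test called 1 of these 20, Uqcrc2 (5%), and 19 had the same peak time on both diets, against 49.2% of all genes. The muscle score given above moved with both lists, and its part in them was not tested. Other genes of muscle among those with the largest differences were Cacna1s, Asb2 and Fbp2, at 12.6 to 14.0, 18.9 to 19.9 and 9.78 to 11.4 FPKM at 9h and 3.21 to 6.07, 5.98 to 10.7 and 3.65 to 5.08 FPKM later.

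Lipid synthesis, the main work of the gland, showed no called gene in either fit. The median difference of 15h minus 9h was -0.02 for 24 cholesterol synthesis genes, 0.00 for 20 fatty acid synthesis genes and -0.09 for 15 genes of wax and meibum esters, and that of 21h minus 9h was -0.01, -0.15 and -0.09 for the same lists. The mean of 16 meibocyte markers lay between 7.10 and 7.36 in the 6 libraries, with overlap between the 3 times. A p that misses the threshold at 2 libraries a time does not show that these genes kept level.

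**Figure D5:**
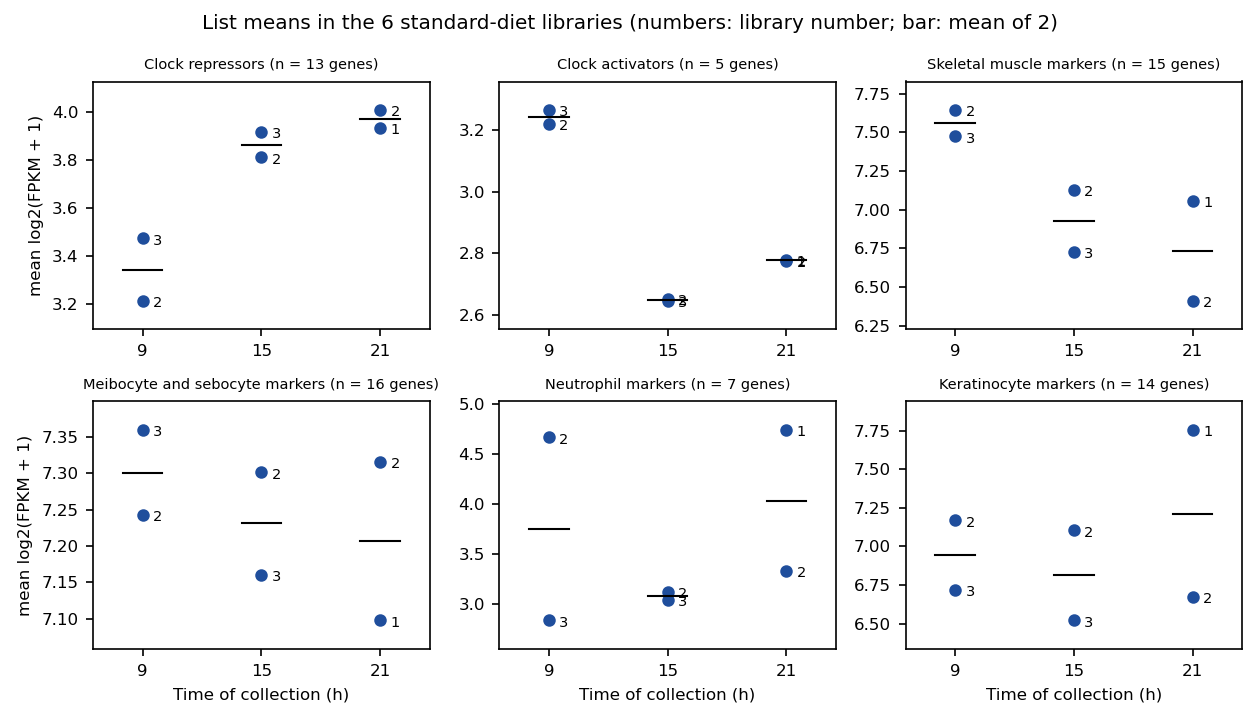
Mean log2(FPKM + 1) of 6 gene lists in each standard-diet library at 9h, 15h and 21h, with the library number beside each point and a bar at the mean of 2, each panel on its own axis. Clock activators and muscle markers are highest in both 9h libraries (7.64 and 7.47 for muscle), meibocyte markers overlap, and neutrophil markers are high in 9h library 2 and 21h library 1 (4.66 and 4.74).

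Most interferon response genes had their lowest mean at 9h, but the F test on all 12 libraries called none. All 22 measured genes had a positive difference of 15h minus 9h, as 61.2% of all genes had, with a median of 0.54, and for 20 of them both 15h libraries were above both 9h libraries, which 39.2% of all genes were. The 6-library F test called 1 of the 22 (4.55%, against 5.68% of all genes). This was Stat2, a part of the factor that drives these genes. Stat2 had 10.4 and 10.1 FPKM at 9h, 16.8 and 22.6 FPKM at 15h and 17.4 and 21.6 FPKM at 21h. Its 9h libraries were the lowest and the later times overlapped (0.87 ± 0.16 for 15h minus 9h, adjusted p = 0.0361). The median of the same 22 genes in the high-fat means was 0.46, and their mean level in each high-fat library was below that of every standard-diet library.

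Cdc20, an activator of the anaphase-promoting complex, was called for 21h against 9h with all 12 libraries. It had 21.9 and 20.6 FPKM at 9h, 15.2 and 15.9 FPKM at 15h and 10.5 and 9.65 FPKM at 21h, each time below the one before without overlap (-1.005 ± 0.11 for 21h minus 9h, limma adjusted p = 0.02). In 8 of the 12 fits without 1 library no gene was called lower at 21h than at 9h. Mcm3, of the replication helicase, went the other way, with 7.86 and 7.49 FPKM at 9h, 8.16 and 8.11 FPKM at 15h and 12.8 and 11.8 FPKM at 21h (0.62 ± 0.08, 6-library adjusted p = 0.0213). These were the 2 of 25 cell cycle genes called by the 6-library F test (8%, against 5.68% of all genes). For 21h minus 9h that fit called 4 higher, Mcm3, Mcm5, Mcm6 and Ccne1, and 1 lower. Of all genes, 6.86% were called higher and 3.17% lower. The remaining call for 21h against 9h, lost in the same 8 fits, was a second entry named Aldoa (ENSMUSG00000114515), named after its values were seen, with 7.30 and 6.30 FPKM at 9h, 4.43 and 4.28 FPKM at 15h and 1.35 and 2.13 FPKM at 21h. The abundant Aldoa gene (ENSMUSG00000030695, 480 to 732 FPKM) was not called, and reads of entries that share a name may be split between them.

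Other genes with the smallest F test p and a mean of at least 5 FPKM were not called with all 12 libraries. Lsr, a receptor of lipoproteins and of cell junctions, had 14.6 and 13.9 FPKM at 9h, 8.74 and 6.87 FPKM at 15h and 5.50 and 6.96 FPKM at 21h. Crabp1, which binds retinoic acid in the cytosol, had 18.1 and 19.5 FPKM at 9h, 53.2 and 48.8 FPKM at 15h and 39.9 and 56.8 FPKM at 21h. Both 9h libraries were highest for Lsr and lowest for Crabp1, and both genes were called in the 6-library fit (adjusted p = 0.0343 for Lsr and 0.0265 for Crabp1). Immediate early genes were lower at 15h than at 9h in 17 of 19 cases, with a median of -0.27, and 38.8% of all genes had a negative difference. Fosb, a stimulus-induced AP-1 subunit, was the 1 called by the 6-library F test (5.26%, against 5.68% of all genes). It had 2.57 and 2.30 FPKM at 9h, 0.608 and 0.355 FPKM at 15h and 0.893 and 0.727 FPKM at 21h. For 15h minus 9h that fit called Fosb and Klf4 lower, and 2.04% of all genes. In the high-fat means Fosb went the other way, with 9h minus 15h at -1.06 against 1.22 on the standard diet. No gene passed the diet by time test. Of 17 genes that glucocorticoids induce, 16 had a positive difference of 21h minus 15h, as 46.3% of all genes had, and for 7 both 21h libraries were above both 15h libraries, which 15.6% of all genes were. Their mean was 3.75 and 4.06 at 15h, 4.76 in 21h library 1 and 3.97 in 21h library 2. The list mean of 21h library 2 thus lay between those of the 15h libraries. None of the 17 was called between those times in either fit. The 6-library F test called 1 of the 17 (5.88%, against 5.68% of all genes). This was Pdk4, given above, which was highest at 9h.

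For likeness to Per2, 7832 genes with a regular name and a mean of at least 5 FPKM were ranked by Pearson r over the 6 standard-diet libraries. A high r at the top of such a ranking follows from the choice and tests nothing. The top 5 were Fam192a, Dhx15, Pgap2, Stk19 and Nipal2, with r of 0.991 to 0.996. Their differences of 21h minus 9h were 0.18 to 0.76, all smaller than that of Per2. None was called with all 12 libraries.

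Whether the time course of the standard diet differed from that of the high-fat diet was tested as an interaction. No gene passed (0.0%): the smallest limma adjusted p was 0.999, and 405 genes (3.06%) had an unadjusted p under 0.05. The fits that left out 1 library, and limma-voom, also gave 0 calls, but without high-fat 9h library 7 there were 1806 genes at an unadjusted p under 0.05 and the smallest adjusted p was 0.0684. Nothing here is therefore shown to be particular to the standard diet. In the 22 clock genes the peak time was the same on both diets for 14 (63.6%), against 49.2% of all genes. The median range of the 3 means was 0.66 on the standard diet and 0.40 on the high-fat diet, against 0.26 and 0.21 for all genes. Npas2 had 4.48 and 3.74 FPKM at 9h, 2.07 and 2.58 FPKM at 15h and 2.40 and 2.16 FPKM at 21h in high-fat libraries. Its mean was highest at 9h on both diets, and lowest at 15h on the standard diet and at 21h on the high-fat diet. The range of its 3 means was 1.18 on the standard diet and 0.64 on the high-fat diet (limma interaction, adjusted p = 0.999).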

How the data were processed

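Members, gene lists and tests were chosen with earlier results of these data known. Results of some clock genes are not reported here. Reads had been aligned with HISAT2 2.0.5 to mm9 and counted with HTSeq 0.9.1, and DESeq 1.30.0 is named too, per the submitters' processing notes. The deposited table holds FPKM made by the authors, and how they went from counts to FPKM, the strand setting and the annotation are not known from the labels. From the steps between low FPKM values, with transcript lengths of GENCODE release M21 (21894 of 21936 IDs matched), whole reads were recovered: 98.05% to 98.2% of nonzero values lay within 0.02 of a whole read, at 14096362 to 17889158 reads a library. Intervals from these reads would cover counting error only.

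Genes above 1 FPKM in at least 2 of 12 libraries (13228) were tested with limma 3.58.1 in R 4.3.3 on log2(FPKM + 1), a scale that understates changes of low genes, with 6 group means, 6 residual degrees of freedom, a mean-dependent prior and Benjamini-Hochberg adjustment, at an adjusted p under 0.05. The main result is this fit; that of the 6 standard-diet libraries alone is an alternative. Named genes are those called, the 22 clock genes, the 15 next by F test p, the largest differences per contrast (unadjusted p under 0.001, mean of at least 5 FPKM, regular name, no overlap of the times compared) and 1 gene a list. The splicing families were chosen after their values were seen. limma-voom on recovered reads called 3 genes by the F test. The fits were tested on simulated data.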

Additional observations from a re-analysis of the deposited data

Results flagged for a closer look

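These results had both standard-diet libraries of a time on one side of both libraries of the other time, and the high-fat libraries on the opposite side. The difference between the diets was not tested for the list means and, for single genes, no interaction passed after adjustment.

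For 15h minus 9h, the standard-diet difference was -0.20 for Cers3, a ceramide synthase of skin, against 0.37 in high-fat libraries. It was -0.52 for Hmox1, heme oxygenase, against 0.45, and for 21h minus 9h Hmox1 had -0.16 against 0.32. Thrsp, a regulator of lipid synthesis at 0.332 to 2.61 FPKM, had 0.69 on the standard diet against -0.48. Clock had -0.19 on the standard diet against 0.11. The mean of 18 other clock-controlled genes differed by 0.0926 on the standard diet and by -0.04 on the high-fat diet. The mean of 6 methyltransferase genes chosen around Inmt differed by 0.38 against -0.11.

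For 21h minus 15h, Zfpm1, a zinc finger cofactor of GATA factors, had 0.17 on the standard diet against -0.20. The mean of 17 temperature-responsive genes differed by -0.0317 against 0.087, and that of the 6 methyltransferase genes by -0.17 against 0.23.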

How the results depend on the processing

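Counts are of genes called by the F test, for 15h against 9h and for 21h against 9h, with 3, 3 and 5 in the fit of 12 libraries; 21h against 15h and the diet by time test stayed at 0 unless named. No filter on low values gave 1, 0 and 4, a mean above 5 FPKM 3, 2 and 3, a prior without a trend 3, 1 and 6, and limma-voom 3, 0 and 4. The muscle score as a covariate, added after seeing the data, gave 0, 0 and 1, and 1 for 21h against 15h. The 6 standard-diet libraries alone gave 751, 1088 and 1327, and leaving out both high-fat 9h libraries 836, 1013 and 1268. Leaving out 1 of 12 libraries gave 0 to 839, 0 to 1012 and 1 to 1264, and 1 of the 6 standard-diet libraries 0 to 165, 0 to 808 and 0 to 37 (0, 40 and 37 without 9h library 3, 106, 808 and 0 without 21h library 1, 165, 747 and 23 without 21h library 2, and 0 otherwise). The high ends among 12 were those without high-fat 9h library 6 (838, 1007 and 1264) or 7 (839, 1012 and 1262), and without high-fat 15h library 2 or 6 the counts were 8, 5 and 14. A time left with 1 library is assumed to vary like the others. With the replicate number as a block all were 0; same-numbered libraries did not all deviate together (r of -0.50 to 0.05 within the standard diet, -0.13 to 0.29 within the high-fat diet and -0.22 to 0.20 across diets), so the number was not taken as a pairing, and the cause was not tested. Over 69 named genes and 30 alternative settings, 5 of 2060 values changed sign, none in a called gene: Aqp5 15h minus 21h under the block (-0.26) and without 21h library 1 in both fits (-0.0042 among values of -0.0042 to 1.48), Dct 9h minus 21h under the block (-0.12) and Bhlhe40 21h minus 9h with the muscle score (-0.0416). Median shifts of all genes were 0.07 for 15h minus 9h and -0.01 for 21h minus 15h.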

Other observations

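Fibroblast and matrix genes had a median difference of 0.47 for 15h minus 9h and of -0.24 for 21h minus 15h on the standard diet, and 12 of 15 were lower in both 21h libraries than in both 15h libraries, which 18.8% of all genes were. Thbs2, a matrix glycoprotein, had 10.4 and 10.9 FPKM at 9h, 21.3 and 22.4 FPKM at 15h and 15.9 and 18.8 FPKM at 21h, highest at 15h without overlap (6-library limma F test, adjusted p = 0.0262). Pdgfra was the other of 2 called by that test (13.3%, against 5.68% of all genes). The high-fat medians were -0.13 and -0.10.

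Mast cell markers were lowest at 21h, with a mean over 6 genes of 2.49 and 2.29 at 9h, 2.35 and 2.31 at 15h and 1.81 and 2.01 at 21h. Mcpt4, a mast cell protease, had 10.4 and 11.5 FPKM at 9h, 10.8 and 9.14 FPKM at 15h and 4.06 and 6.31 FPKM at 21h. It was called in the 6-library limma fit for 21h minus 9h (adjusted p = 0.034), but not by its F test (adjusted p = 0.0547). That fit called 3 of the 6 genes lower for 21h minus 9h, and 3.17% of all genes.

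S100a8, abundant in neutrophils, had 42.4 and 4.43 FPKM at 9h, 5.75 and 5.74 FPKM at 15h and 68.0 and 11.4 FPKM at 21h. The 2 highest values were those of 9h library 2 and 21h library 1. Both 21h libraries were above both 15h libraries, as for 5 of the 7 neutrophil markers and for 15.6% of all genes. Cxcr2, a neutrophil chemokine receptor, was the 1 marker of 7 called by the 6-library limma F test (14.3%, against 5.68% of all genes, adjusted p = 0.0301). It had 17.7 and 16.3 FPKM at 9h, 9.58 and 8.39 FPKM at 15h and 10.4 and 11.6 FPKM at 21h.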
